A study of Mus musculus with 12 samples.

Results

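The exocrine RNA carried by hand-picked mouse islets was described across the 12 samples of a series on Wfs1, the gene mutated in Wolfram syndrome. The samples were ranked on their RPKM (a read count scaled to transcript length and library size) of Ctrb1, chymotrypsinogen B1, and the 6 highest, chosen by that value alone, were set against the 6 lowest. All 12 samples were therefore used, and the 13357 genes with a mean of at least 1 RPKM were described of 24078 entries in the deposited table. The islets came from male F2 hybrids of 129S6/SvEvTac and C57BL/6 at 5 to 6 months of age, 4 WT animals, 4 heterozygous for the Wfs1tm1Koks allele (Wfs1HZ) and 4 homozygous for it (Wfs1KO), with 1 library per animal. In that allele a LacZ cassette takes the place of most of exon 8 in every cell, and a truncated fusion protein is still made. All pancreata were digested with collagenase, and all islets were cultured overnight in a high-glucose medium before RNA was isolated.

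The pancreas joins exocrine and endocrine tissue. Acinar cells make digestive zymogens and secrete them through the ducts, and the transcription factor complex PTF1, built around Ptf1a and Rbpjl, drives their enzyme genes. Islets of endocrine alpha, beta, delta and PP cells lie within the acinar tissue, so that collagenase digestion and picking by hand leave a varying amount of acinar material on or beside them. REG proteins are secreted lectin-like proteins of the acinar cell known to be made in large amounts during pancreatic inflammation.

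Ctrb1 lies on chromosome 8 (mm10, 111686519 to 111691010, minus strand). It was at 258069.7 RPKM in Wfs1HZ replicate 4, 220883 in Wfs1KO replicate 3, 94362 in WT replicate 4, 88591 in WT replicate 3, 83766 in Wfs1HZ replicate 1 and 58609 in Wfs1HZ replicate 3. Among the 6 poorest samples it was at 56357 RPKM in Wfs1KO replicate 1, 49546 in Wfs1KO replicate 2, 48373 in WT replicate 1, 41103 in WT replicate 2, 6393 in Wfs1HZ replicate 2 and 6079 in Wfs1KO replicate 4. The range was thus 42.5-fold, while the sample just inside the split exceeded the one just outside it 1.04-fold. The 6 richest held 2 WT, 3 Wfs1HZ and 1 Wfs1KO sample, and the 6 poorest 2 WT, 1 Wfs1HZ and 3 Wfs1KO samples.

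**Figure D1:**
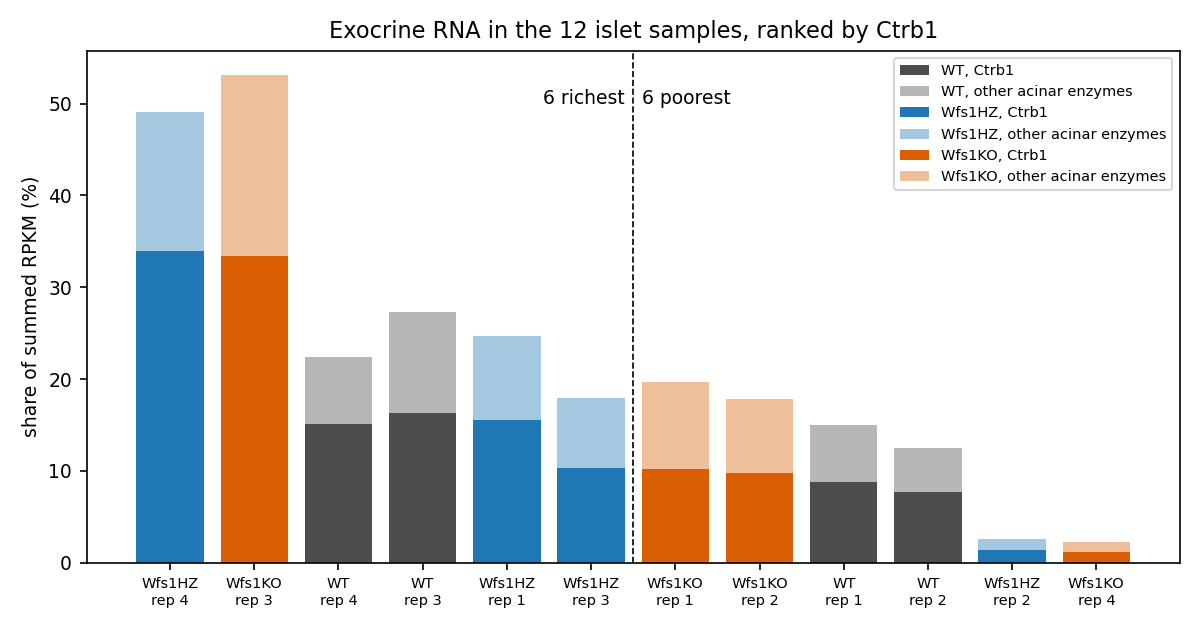
Each bar is 1 islet sample, ordered by Ctrb1 RPKM from left to right, and its height is the share of the summed RPKM (%) taken by Ctrb1 (dark) and by the other acinar enzymes (pale). The total runs from 53.0% in Wfs1KO replicate 3 to 2.26% in Wfs1KO replicate 4, and the dashed line separates the 6 richest from the 6 poorest samples.

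Summed over the 37 acinar enzyme, inhibitor and zymogen granule genes found in the table, exocrine RNA took 49.1% of all RPKM in Wfs1HZ replicate 4 and 53.0% in Wfs1KO replicate 3. It took 17.9% to 27.3% in the other 4 rich samples, and 12.5% to 19.7% in Wfs1KO replicates 1 and 2 and WT replicates 1 and 2. In the 2 poorest samples it took 2.58% (Wfs1HZ replicate 2) and 2.26% (Wfs1KO replicate 4). The ranges of the sides overlapped by this sum, since Wfs1HZ replicate 3 at 17.9% lay below Wfs1KO replicate 1 at 19.7%. In whole islet RNA, fewer cells of a type and less RNA per cell cannot be told apart.

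The libraries differed in more than Ctrb1. The reads behind the RPKM values, estimated from the steps between low values of short RNA genes, ranged from 2187000 (Wfs1HZ replicate 2) to 9565000 (Wfs1KO replicate 1), and 3 reads on a 2 kb gene were worth 0.157 to 0.686 RPKM. The study reports more reads for every sample than the highest of these estimates. The estimates are therefore not the numbers of reads sequenced, and the reason for the gap was not tested. Wfs1HZ replicate 2 stood apart, with a median Spearman correlation of 0.860 to the other samples against 0.904 to 0.931 elsewhere. Its 1508 olfactory and vomeronasal receptor entries summed to 3336 RPKM against 166 to 755 RPKM in the other 11. Wfs1KO replicate 4, also among the 3 shallowest, held the 755. Wfs1, the targeted gene, was at 24.9 to 33.9 RPKM in WT, 4.69 to 16.4 in Wfs1HZ and 2.45 to 6.61 in Wfs1KO, so that WT lay apart and the mutant groups overlapped.

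Promoters are shown first, because the acinar genes are the group whose levels went together. The 7 letters TGGGAAA belong to the site that PTF1 is known to bind in acinar promoters, beside an E-box (CANNTG). Both strands of the 250 bases before each RefSeq gene start (GRCm38.p6) were searched for TGGGAAA, and the matches are in capitals (TTTCCCA where the match is on the other strand). The 4 genes below were picked because they hold a match.
Ctrb1, chr8:111691011-111691260, strand -: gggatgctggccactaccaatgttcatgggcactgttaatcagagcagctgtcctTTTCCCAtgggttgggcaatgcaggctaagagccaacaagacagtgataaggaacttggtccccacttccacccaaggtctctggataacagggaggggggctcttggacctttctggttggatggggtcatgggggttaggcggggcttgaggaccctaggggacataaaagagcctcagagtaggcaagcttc
Cel, chr2:28563404-28563653, strand -: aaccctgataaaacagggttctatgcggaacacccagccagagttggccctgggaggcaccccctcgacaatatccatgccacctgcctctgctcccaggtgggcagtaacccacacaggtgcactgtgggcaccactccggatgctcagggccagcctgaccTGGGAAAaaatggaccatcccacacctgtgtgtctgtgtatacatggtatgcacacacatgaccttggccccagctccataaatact
Prss2, chr6:41521526-41521775, strand +: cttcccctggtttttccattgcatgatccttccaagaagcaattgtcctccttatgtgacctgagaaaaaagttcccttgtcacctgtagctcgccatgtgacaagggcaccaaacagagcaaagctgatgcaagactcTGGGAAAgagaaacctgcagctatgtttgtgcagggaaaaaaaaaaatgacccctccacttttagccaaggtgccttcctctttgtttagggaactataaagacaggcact
Reg1, chr6:78425733-78425982, strand +: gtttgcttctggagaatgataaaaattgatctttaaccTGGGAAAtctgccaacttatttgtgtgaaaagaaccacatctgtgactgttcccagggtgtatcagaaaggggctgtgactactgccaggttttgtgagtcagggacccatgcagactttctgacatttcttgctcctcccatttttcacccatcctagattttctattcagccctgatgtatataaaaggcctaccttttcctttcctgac
Counted from the gene start, the match begins at base -195 in Ctrb1, -87 in Cel, -111 in Prss2 and -212 in Reg1. TGGGAAA or its complement was in 6 of 36 promoters (16.7%) of the acinar enzyme list, of which 34 of 43 genes were matched, and in 3 of 7 promoters (42.9%) of the REG family. Of all 32851 promoters 6.82% held it. Shares in the other lists ran from 0% (among them the 13 beta cell promoters) to 14.3% (1 of 7 endothelial and 1 of 7 acinar regulator promoters). CANNTG was in 83.3% of the enzyme and 100% of the REG promoters, against 66.2% of all. In the other lists it was in 37.5% (housekeeping) to 90% (immune). A match describes letters and not a site.

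The acinar enzymes followed Ctrb1 closely. Differences below are in mean log2(RPKM + 0.1), the 6 richest minus the 6 poorest samples, and carry no test because Ctrb1 chose the sides. The median difference of the 36 enzyme genes kept was 1.67, against -0.37 over all 13357 genes, and 35 were above 0, 34 of them by at least 1. These counts include Ctrb1, whose values were fixed by the ranking. Without it the median of the other 35 genes was 1.66, with 34 above 0 and 33 by at least 1. The median Spearman correlation with Ctrb1 over the 12 samples was 0.86 (Pearson 0.96), and without the 2 samples farthest from the median Ctrb1, Wfs1KO replicate 4 and Wfs1HZ replicate 2, the Pearson median was 0.88. Without Ctrb1 these medians were 0.85, 0.96 and 0.86.

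Those 2 samples carried much of the difference. Without both, a setting chosen after seeing the data, the median difference of the enzymes was 0.83 rather than 1.67. Within a genotype, the 2 richer minus the 2 poorer samples differed by 0.72 in WT, 2.28 in Wfs1HZ and 2.35 in Wfs1KO, and 32 of the 36 genes were higher in the richer pair of every genotype, as 5.53% of all genes were. Without Ctrb1 the medians were 0.71, 2.26 and 2.34, and 31 of 35 genes were higher in every richer pair.

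Few genes were fully separated between the sides. Counting a gene as higher when all 6 rich samples exceeded all 6 poor ones and the difference reached 1, 5 of 13357 genes (0.0374%) were higher and 41 (0.307%) lower. With overlap allowed, 144 (1.08%) differed by at least 1 and 914 (6.84%) by at most -1. The 5 higher genes were Ctrb1 itself, Cel (bile salt-activated lipase), Gp2 (the main glycoprotein of the zymogen granule membrane), Krt8 (a keratin of simple epithelia) and Gjb2. Without the 2 poorest samples the counts were 7 and 47. Leaving out single samples gave 20 higher genes without Wfs1HZ replicate 3, 18 without Wfs1KO replicate 1 and 10 without WT replicate 1. The lower genes numbered 63 to 113 without any 1 of WT replicates 1 to 4, Wfs1HZ replicates 1 and 3 or Wfs1KO replicates 1 to 3.

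Cel ran from 2758 through a median of 3914 to 8256 RPKM in the rich samples and from 344 through 1839.9 to 2650.3 in the poor ones, a difference of 1.84. The zymogen granule protein Sycn, the second most abundant acinar transcript, ran from 11012 through 13439 to 36204 RPKM against 1133 through 6768 to 14713, a difference of 1.91. Wfs1KO replicate 1, the richest of the poor side, was above 4 of the 6 rich samples for Sycn, and the sides overlapped. Clps, the lipase cofactor, ran from 3059 through 4626 to 12940 RPKM against 473 through 3051 to 5644. Cpb1 (carboxypeptidase B1) ran from 3398 through 5176 to 11381 RPKM against 376 through 2244 to 3791.

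Cpa1 (carboxypeptidase A1) ran from 3009 through 4507 to 8705 RPKM against 391 through 2120.3 to 3458. Prss2, a trypsinogen, ran from 2631 through 3596 to 7957 RPKM against 269.7 through 1941 to 3159. In each of these genes the 2 richest samples were highest and the 2 poorest lowest. The sides overlapped through Wfs1KO replicate 1 for Prss2, through Wfs1KO replicate 2 for Cpb1, through both for Cpa1 and through these and WT replicate 1 for Clps. Amy2b, a pancreatic amylase, and Pnliprp1, a lipase relative, were among the genes with the highest Spearman correlation to Ctrb1, at 0.97 each, with Prss2 at 0.97 and Cpa1 at 0.96.

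Only 2 of the 36 enzyme-list genes were exceptions, with means of 1.73 and 1.63 RPKM. Tmed11, a transport protein of the p24 family, differed by -0.29 and Serpini2, a pancreatic serpin, by 0.11, with correlations of -0.19 and 0.20. Try4, Try5, Try10, Prss1, Prss2 and Prss3 are close copies of one another, as are the amylases, and the counting could have split reads among them, so that their single levels are uncertain. The amylases Amy2a2 to Amy2a5 stand in the deposited table under names marked as copies and were not counted in the list. An entry of Amy2a5 differed by 2.65.

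**Figure D2:**
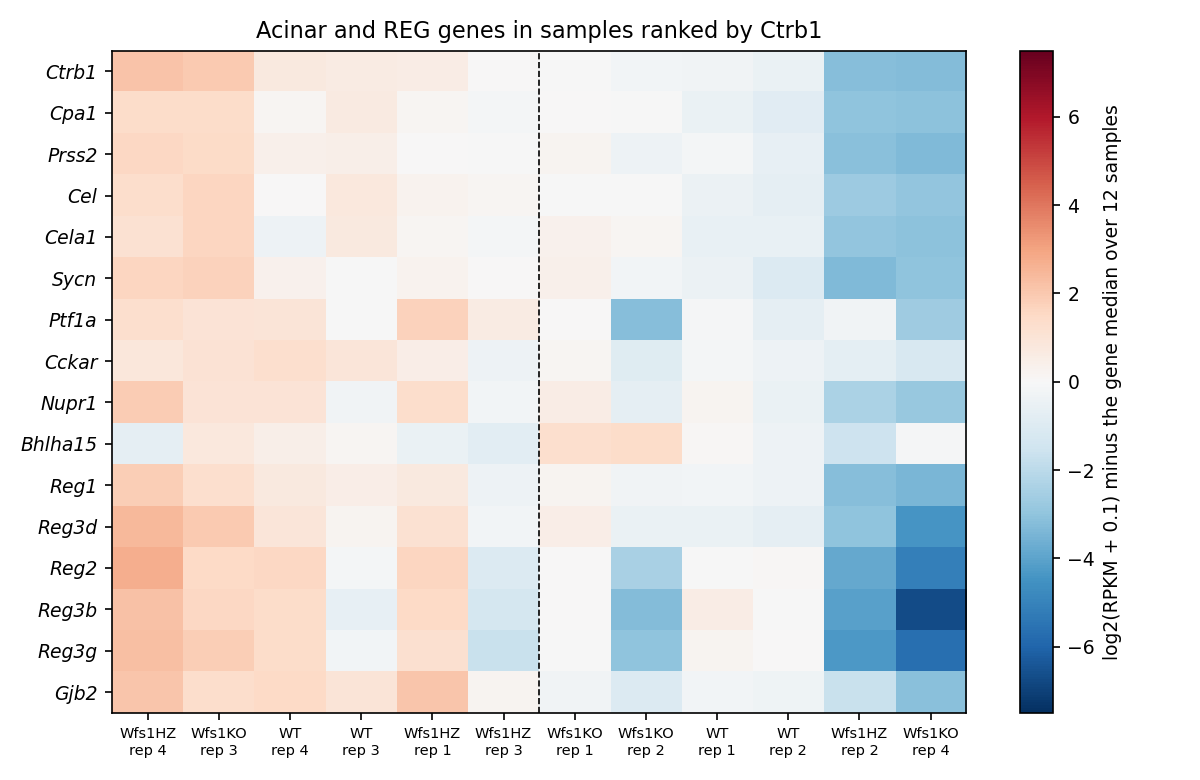
The vertical axis lists acinar, regulator and REG genes and Gjb2, the horizontal axis the 12 samples ordered by Ctrb1 RPKM, and colour is log2(RPKM + 0.1) minus the gene's median over the samples. The 6 enzyme-list genes at the top are lowest in the 2 poorest samples, Bhlha15 is highest in Wfs1KO replicates 1 and 2, and the REG genes are lowest in Wfs1KO replicate 4.

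The ratio to Cpa1 within a sample varied to different degrees among the enzyme-list genes. Cel stood at 0.740 to 0.982 of Cpa1 over the 12 samples, a 1.33-fold range, while Cel itself ranged 24.0-fold and Cpa1 22.3-fold. Prss2 ranged 1.57-fold relative to Cpa1 and Cela1, an elastase, 1.74-fold. Ctrb1 stood between 15.2-fold and 29.6-fold above Cpa1, highest in Wfs1HZ replicate 4. Pnlip, the pancreatic lipase, ranged 1.95-fold, Sycn 2.04-fold and Clps 2.91-fold. Spink3, the trypsin inhibitor of the acinar cell, ranged 10.4-fold relative to Cpa1, which is closer to Reg2 below than to the other enzyme-list genes given here.

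Regulators of the acinar cell were low and followed Ctrb1 less evenly. The median difference of the 8 genes was 0.89, with 6 above 0, and their median correlation was 0.77. Ptf1a, the PTF1 subunit that specifies acinar fate, ran from 1.81 through 3.67 to 6.20 RPKM in the rich samples and from 0.110 through 1.30 to 1.85 in the poor ones, a difference of 2.07. The sides overlapped by a single sample, Wfs1KO replicate 1 at 1.85 against WT replicate 3 at 1.81. Wfs1KO replicates 2 and 4 had 0.110 and 0.200 RPKM of Ptf1a. Both values lay below the level of 3 reads on a 2 kb gene in those libraries, 0.245 and 0.457 RPKM. The Ptf1a difference ran from 0.49 to 2.59 over 26 alternatives. Cckar, the cholecystokinin receptor that triggers enzyme secretion, ran from 3.91 through 9.63 to 12.5 RPKM against 2.26 through 3.54 to 5.83. Its difference was 1.23.

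Nupr1, a stress-induced chromatin protein, was the one abundant regulator, at 639.8 through 1576 to 2935 RPKM against 109.6 through 517 to 1133, a difference of 1.74. Gata4 (0.91), Rbpjl (0.86) and Nr5a2 (0.72), factors that maintain acinar identity, all lay below 1 in difference and overlapped between the sides.

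Bhlha15 (Mist1), which organises the secretory granules of acinar cells, did not follow Ctrb1 across the split. It ran from 3.12 through 5.10 to 9.54 RPKM in the rich samples and from 1.81 through 5.54 to 14.4 in the poor ones. Wfs1KO replicates 1 and 2 were highest, at 13.4 and 14.4 RPKM, and the correlation with Ctrb1 was 0.17. Its difference of -0.21 was 0.16 after median-of-ratios scaling and kept its sign in 17 of 27 alternatives (-0.67 to 0.80), turning positive with samples ranked by Cpa1, Prss2, Cela1 or the enzyme mean. Within genotypes the richer pair exceeded the poorer one by 0.46 in WT, 0.61 in Wfs1HZ and 0.37 in Wfs1KO. The order within Wfs1KO was not that of Ctrb1. Replicate 3, the richest in Ctrb1, was at 9.54 RPKM, below replicates 1 and 2, and replicate 4 was lowest at 5.26 RPKM. Bhlha15 was above Wfs1HZ in Wfs1KO by 1.71 ± 0.40 (SE, limma adjusted p = 1) and above WT by 0.77 ± 0.33 (limma adjusted p = 0.901), neither past the threshold, and 3 of the 4 Wfs1KO samples were on the poor side. The study's edgeR test listed Bhlha15 as higher in Wfs1KO than in Wfs1HZ. Fgf21, a hormone that acinar cells also make, differed by -0.49 around a mean of 1.97 RPKM and was at 0 in WT replicate 3.

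The REG genes differed between the sides by more than the enzyme median. The 6 genes kept, which lie in 1 cluster on chromosome 6 between 78370657 (Reg3b) and 78468872 (Reg3g), had a median difference of 2.92, from 1.99 for Reg1 to 3.20 for Reg3a, and all 6 exceeded the acinar median of 1.67. Without the 2 poorest samples the median was 1.48. None of the 6 was separated between the sides. Within WT the median difference was 0.58, within Wfs1HZ 4.34 and within Wfs1KO 4.89. The enzyme medians were 0.72, 2.28 and 2.35, so that within WT the REG genes did not exceed the enzymes.

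Reg1, a secreted stone protein, ran from 1899.9 through 4095 to 8684 RPKM in the rich samples and from 229.9 through 1945 to 2827 in the poor ones. It kept near the enzymes, with a 1.90-fold range relative to Cpa1. Reg3d ran from 44.2 through 105 to 285 RPKM against 2.33 through 34.5 to 73.1, and its correlation with Ctrb1 was 0.94.

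Reg3b, an antibacterial lectin also known as pancreatitis-associated protein, ran from 177 through 1174 to 1955 RPKM against 4.00 through 236 to 627. It ranged 489-fold over the samples and still 32.2-fold relative to Cpa1. Reg2 ran from 583 through 3434 to 8014 RPKM against 34.2 through 698 to 1262, a 234-fold range and 14.3-fold relative to Cpa1. Reg3g, another antibacterial lectin, ran from 25.9 through 204 to 389 RPKM against 1.57 through 46.2 to 96.0. Reg3a ran from 11.2 through 46.7 to 141 RPKM against 0 through 8.84 to 21.7.

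Reg3b was not ordered as the enzymes were. Wfs1KO replicate 2 and Wfs1HZ replicate 3, with 3235 and 3009 RPKM of Cpa1, had 46.0 and 177 RPKM of Reg3b. WT replicate 1 and WT replicate 2, with less Cpa1 (2368 and 1872 RPKM), had 627 and 426 RPKM of Reg3b. Wfs1KO replicate 4 had the lowest Reg3b to Cpa1 ratio, 0.0102, and Wfs1HZ replicate 1 the highest, 0.329. The REG genes share sequence, so reads may be split between them.

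**Figure D3:**
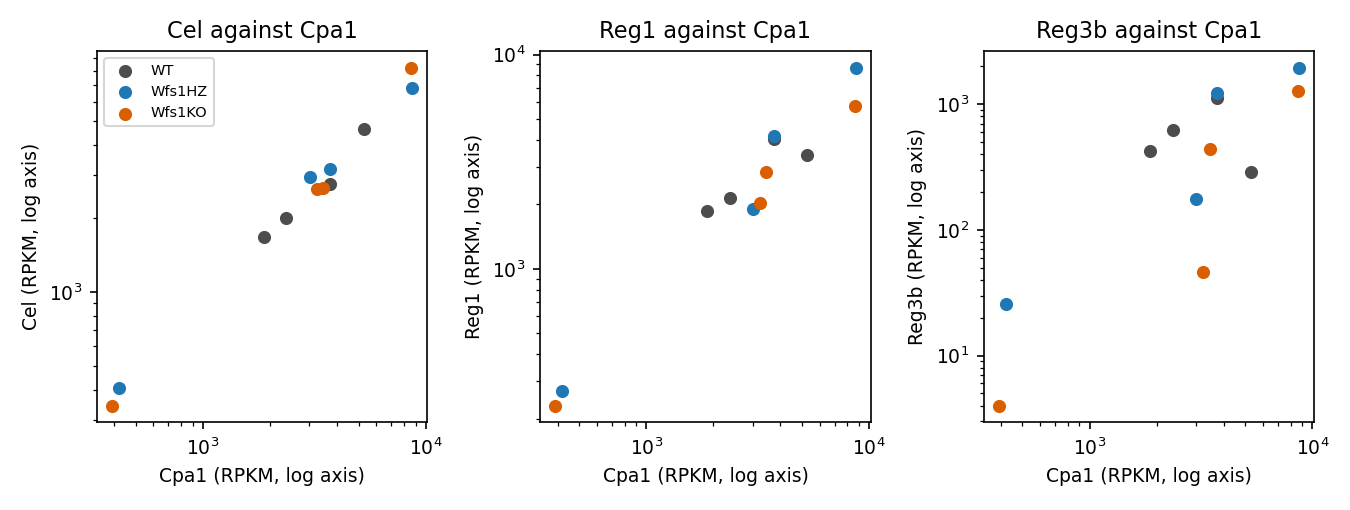
Each point is 1 islet sample, coloured by genotype, with Cpa1 RPKM on the horizontal and Cel, Reg1 or Reg3b RPKM on the vertical log axis. Cel keeps to a line with Cpa1, Reg1 nearly so, while Reg3b spreads 32.2-fold relative to Cpa1.

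Among genes outside all lists, Gjb2 was the single gene counted as higher. It encodes connexin 26, a gap junction protein of the exocrine pancreas. Gjb2 ran from 9.81 through 22.6 to 36.1 RPKM in the rich samples and from 0.880 through 5.47 to 7.33 in the poor ones, a difference of 2.45, and its correlation with Ctrb1 was 0.89. The largest correlation outside the lists was that of Gm10334, a trypsinogen-like gene, at 0.96. Its reads cannot be assigned apart from those of its copies.

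The ductal list was divided. Its median difference was 0.08 over 17 genes, with 9 above 0 and 8 below. Krt8 ran from 65.3 through 72.6 to 102 RPKM in the rich samples and from 22.3 to 46.8 in the poor ones, 4 of which lay between 39.7 and 46.8, a difference of 1.17. Tff2, a mucosal trefoil peptide, differed by 1.47 and correlated with Ctrb1 at 0.89, and the keratins Krt19 and Krt18 differed by 0.92 and 0.89. Pkhd1, a protein of the duct cell cilium, differed by -0.79 and Cftr, the chloride channel of ducts, by -0.63. Krt8 and Krt18 are also made by acinar cells.

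Across the split stromal genes went the other way, and 2 samples carried most of it. The median difference of the 16 genes was -0.94, 15 were below 0 and 7 by at least 1. Of all genes 87.0% were below 0 and 6.84% by at least 1. Within genotypes the median of the list was 0.22 in WT, -1.97 in Wfs1HZ and -0.49 in Wfs1KO, so that in WT the list did not oppose Ctrb1. Col1a1 (type I collagen) differed by -1.70 and Lum, a collagen-binding proteoglycan, by -1.45, whereas Timp1, a metalloproteinase inhibitor, differed by 0.84 and Pdgfrb, the pericyte receptor, by -0.22. Col1a2 was at 0.810 through 4.18 to 7.34 RPKM in the rich samples and at 0.580 through 7.96 to 64.7 in the poor ones. The highest values were those of Wfs1HZ replicate 2 (64.7 RPKM) and Wfs1KO replicate 4 (20.7 RPKM), and without both samples the median of the list was -0.22. The list's summed level ran from 62.0 to 204 RPKM in the rich samples and from 107 to 819 RPKM in the poor ones. The olfactory receptor signal and the low depth of Wfs1HZ replicate 2 moved with it, and their part in the difference was not tested.

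The 41 lower genes were all outside the lists and mostly scarce. Their median mean level was 3.08 RPKM against 6.93 RPKM over all genes, and 73.2% lay under 5 RPKM against 40.1% of all genes. The largest of these differences was that of the olfactory receptor gene Olfr430, -3.04, at 0 through 0.245 to 0.710 RPKM in the rich samples and 0.850 through 2.09 to 6.31 in the poor ones. It was highest in Wfs1KO replicate 4 and Wfs1HZ replicate 2. Tsx, a testis gene of the X chromosome, came next at -2.21, then Nup62cl at -1.98, and C030016D13Rik, Gm11944, Ephx4, Zkscan14, Impg2, 1700094D03Rik and Sox12 at -1.95 to -1.45. Tsx rested on about 1.0 to 5.0 reads in the rich samples and 4.0 to 18.8 reads in the poor ones.

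Sox12, a transcription factor of the SoxC group, ran from 0.670 through 1.77 to 2.34 RPKM against 2.54 through 3.69 to 7.19. The genes that opposed Ctrb1 most evenly differed by between -2.45 (Spaca1) and -0.53 (Sesn2). After median-of-ratios scaling these were -2.24 and -0.16. Spaca1 rested on about 0.0 to 7.4 reads in the rich samples and 11.8 to 20.6 reads in the poor ones. Cul5, the scaffold of a ubiquitin ligase, ran from 5.39 through 8.84 to 12.4 RPKM in the rich samples and from 12.6 through 15.1 to 15.7 in the poor ones, with a difference of -0.78 and a correlation of -0.97. Ctso (cathepsin O), Sesn2, Naa38, Mapk8, Spaca1, Stox2, Zkscan3, Lnp and 4931408A02Rik also stood at -0.97. The median correlation over all genes was -0.47, and the RPKM values of a sample share 1 total.

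Most genes were lower in the rich samples. Of all genes 87.0% had a difference below 0, and after median-of-ratios scaling 49.9%, when the median over all genes moved from -0.37 to 0.00. The 41 lower genes became 7 and the 5 higher genes 19 after that scaling. Differences between -0.37 and 0 therefore have no fixed direction, and each list is given below against -0.37.

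The beta cell list lay above the background. The median difference of its 18 genes kept was 0.34, with 12 above 0 and 6 below. Ins2 ran from 14220.3 through 41032 to 76687 RPKM in the rich samples and from 6423 through 19863 to 67080.1 in the poor ones, a difference of 0.91, which was 0.25 without the 2 poorest samples and -0.37 after quantile normalization. Ins1 differed by 0.86, from 18519.6 through 37545 to 91587 RPKM against 4981 through 27721 to 57662. The 2 samples poorest in Ctrb1 were also lowest in Ins1 and Ins2. The identity factors Nkx2-2 (-0.84) and Pdx1 (-0.55) lay below, and the cation channel Trpm5 (1.27) above. Without the 2 poorest samples the median of the list was -0.04. Ins1 and Ins2 share most of their coding sequence.

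The alpha, delta and PP cell list lay at -0.46, close to the background, with 12 of 13 genes below 0, as were 87.0% of all genes. Ppy, pancreatic polypeptide, was the exception that went past 1. It ran from 2525 through 3699 to 8188 RPKM in the rich samples and from 5351 through 9755 to 18204 in the poor ones, a difference of -1.33 with a correlation of -0.84. Without the 2 poorest samples it was -1.07. Hhex, a delta cell factor, followed at -0.96. Gcg, proglucagon, ran from 52639.9 through 82204 to 109573 RPKM against 50073 through 115969.6 to 217165, a difference of -0.46 that came to -0.07 without the 2 poorest samples. Sst, somatostatin, differed by 0.03.

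Pan-endocrine genes had a median of -0.10 (15 genes). The granins Chgb (0.11) and Scg2 (-0.02) were near 0, and Ptprn2, a granule phosphatase, was highest at 0.22. The factor Insm1 (-0.79) and the prohormone convertase inhibitor Pcsk1n (-0.82) were lowest. Neurod1, a factor shared by islet cells, ran from 24.4 through 32.4 to 53.2 RPKM against 46.0 through 52.3 to 55.5, and only 2 of the 6 rich samples reached the poor range.

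**Figure D4:**
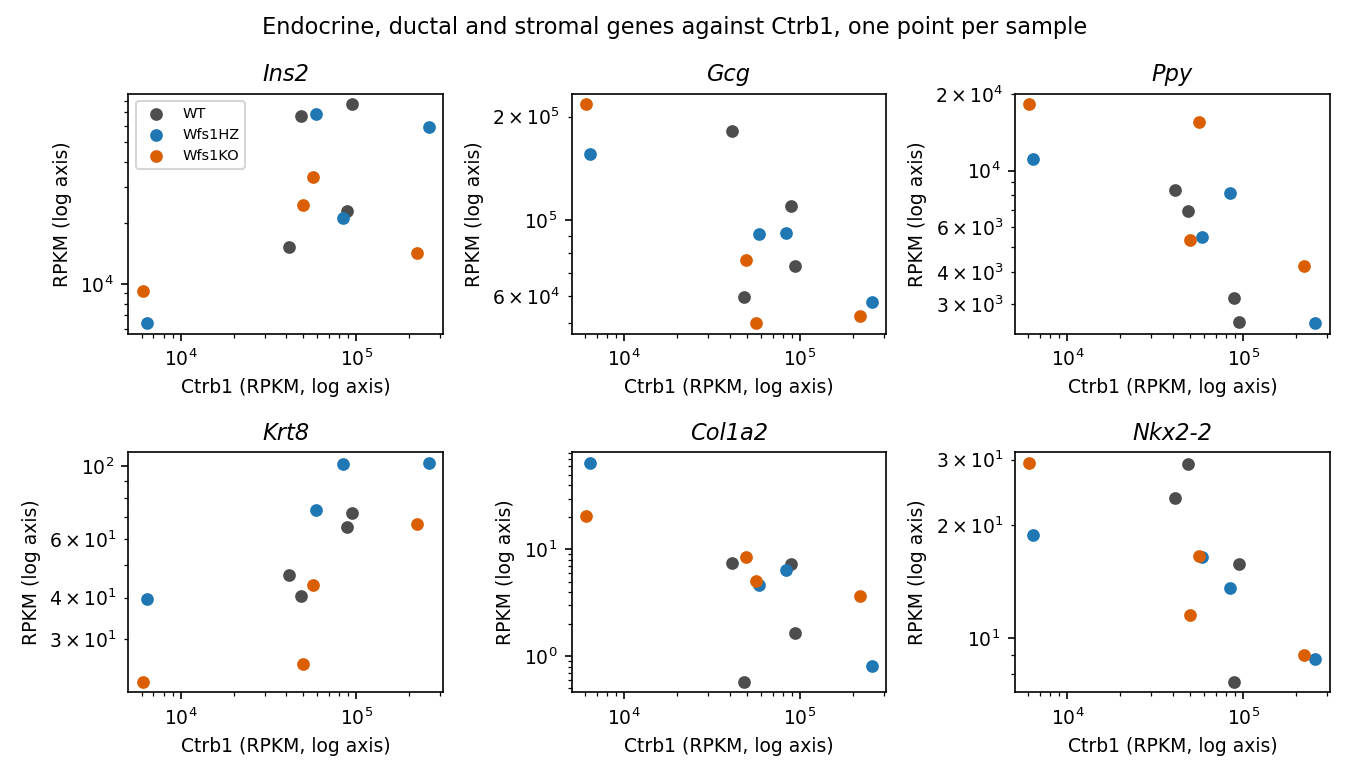
Each point is 1 islet sample, coloured by genotype, with Ctrb1 RPKM on the horizontal and the RPKM of the named gene on the vertical axis, both on log axes. Ppy and Nkx2-2 are lower and Krt8 higher in samples with more Ctrb1, Ins2 is lowest in the 2 samples poorest in Ctrb1 and Col1a2 highest in them.

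The other list medians stayed within 1 of 0. ER chaperones and unfolded protein response genes had a median of -0.16 (25 genes), with the factor Xbp1 (0.44) and Sdf2l1 (0.27) highest and the stress gene Trib3 (-0.76) and Herpud1 (-0.55) lowest. The translocation and glycosylation genes were at -0.36 (22 genes), from Sec61g (-0.88) and Sec61b (-0.62) to Srpr and Ssr1 (-0.05 and -0.08). Ribosomal proteins were at -0.52 (24 genes), all below 0, from Rplp2 (-1.05) and Rpl7 (-0.75) to Rplp0 (-0.19) and Rpl10 (-0.09). After median-of-ratios scaling 16 of these genes were below 0 and 8 above. Housekeeping genes were at -0.11 (12 genes), with Actb (0.44) and B2m (0.35) highest.

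Endothelial genes were at -0.32 (12 genes), from Tek (-0.55) and Cdh5 (-0.43) to Plvap (-0.21) and Flt1 (-0.03). Immune genes were at 0.19 (10 genes kept), with Cd68 (0.75) and Cd74 (0.60) highest and Cd79a (-1.19) and Ptprc (-1.10) lowest. Cytokines and NF-kB targets were at 0.40 (14 genes), with Ccl2 (1.22) and Il6 (1.16) highest and Cxcl9 (-0.28) and Socs3 (-0.07) lowest. That median was 0.04 without the 2 poorest samples.

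Immediate early genes were at -0.22 (14 genes), with Npas4 (1.52) and Ier3 (0.57) highest and Ier2 (-0.57) and Myc (-0.49) lowest. Cell cycle genes were mostly below the minimum, and 4 of 13 had a median of -0.11, between Ccna2 (-0.44) and Mcm5 (0.34). Of the adipocyte list only Fabp4 was kept (-0.55), with Adipoq at 0.188 RPKM. Of the erythroid list Hbb-b1 and Hbb-b2 (0.78 each, near-identical genes) and Alas2 (-0.23) were kept. Both globins were under 1 RPKM in 8 of the 12 samples and at 0 in 4 of them, with a correlation to Ctrb1 of -0.08 and differences of -3.46 and -3.48 within Wfs1HZ. The median of the list, 0.78, was 0.05 to 1.35 on leaving out 1 sample and kept its sign in 19 of 26 alternatives.

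**Figure D5:**
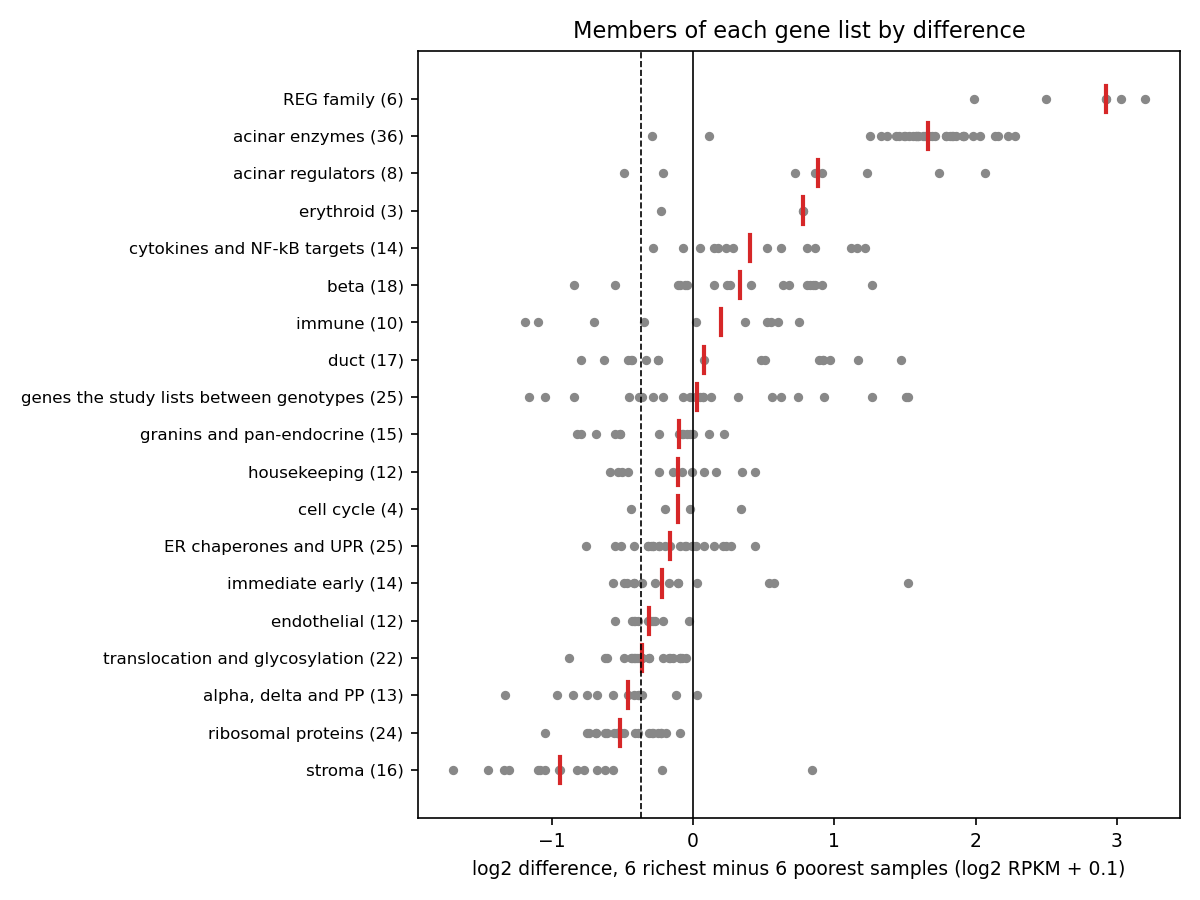
Grey points are the genes of each list with at least 2 genes kept by their log2 difference (6 richest minus 6 poorest samples), red bars the list medians, with the number of genes in brackets, and the dashed line the median of all genes (-0.37). REG genes at 2.92 and acinar enzymes at 1.67 lie farthest above it, and stromal genes at -0.94 farthest below.

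Genotype took no part in the ranking, and whether Ctrb1 differed by genotype could be tested. Ctrb1 was at 68107 ± 27249 RPKM in WT, 101709 ± 109108 in Wfs1HZ and 83216 ± 94441 in Wfs1KO (mean ± SD, n = 4 each). The direction depended on the scale, since the mean RPKM was higher in both mutant groups than in WT and the mean log2 value was lower. The difference of Wfs1KO from WT was -0.54 ± 1.11 (SE) on the log2 scale (p = 0.743, adjusted p = 0.857, exact two-sided permutation test). Wfs1KO differed from Wfs1HZ by -0.28 ± 1.55 (p = 0.686, adjusted p = 0.857, exact permutation test) and Wfs1HZ from WT by -0.26 ± 1.16 (p = 0.857, adjusted p = 0.857, exact permutation test). These exact permutation tests of 4 against 4 could reach p = 0.029 at the lowest, and the p-values were adjusted over the 3 comparisons. The SD of log2 Ctrb1 was 0.61 in WT, 2.23 in Wfs1HZ and 2.14 in Wfs1KO, and this difference in spread was not tested.

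Across all genes, limma on log2(RPKM + 0.1) called 3 genes between Wfs1KO and WT (0.0225% of 13357) at an adjusted p under 0.05, against 723 at an unadjusted p under 0.05. They were Wfs1 (-2.76 ± 0.29 (SE), limma adjusted p = 0.0109) and the short nucleolar RNA genes Snord82 (5.25) and Snord52 (-5.23). With a pseudocount of 1 in place of 0.1 the 3 calls became 1. No gene was called between Wfs1KO and Wfs1HZ (0%, with 342 at an unadjusted p under 0.05) or between Wfs1HZ and WT (0%, with 289). With edgeR, the study itself listed more genes for Wfs1KO against WT and against Wfs1HZ at a threshold of 0.05. In limma no acinar enzyme, regulator or REG gene passed in any of the 3 comparisons. For the enzymes the median difference of Wfs1KO from WT was -0.18 with a median SE of 0.74, against a median SE of 0.31 over all genes, so that a difference of this size was not detectable. Leaving out Wfs1KO replicate 4 gave 33 genes against WT and 8 against Wfs1HZ, leaving out Wfs1HZ replicate 2 gave 2 against Wfs1HZ, and leaving out WT replicate 1 or Wfs1KO replicate 3 gave 0 against WT. For the REG genes the median was -1.97 with a median SE of 1.17.

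With log2 Ctrb1 added as a covariate, the median SE of the enzymes was 0.29. A smaller SE was built in, because the list holds Ctrb1 and its genes correlated with Ctrb1. In that fit 16 genes were called between Wfs1KO and WT, 7 higher and 9 lower, including all 3 of the fit without it. Trpm5, the calcium-activated channel of beta cells, passed there (-2.35 ± 0.35, limma adjusted p = 0.0411) and missed without the covariate (-2.36 ± 0.37, limma adjusted p = 0.0956). The study's edgeR test, which had no such covariate, listed Trpm5 as lower in Wfs1KO than in WT and than in Wfs1HZ. RT-PCR in the study also found Trpm5, Gad1 and Maob lower in Wfs1KO islets. For Glipr2 and Apoe, higher in Wfs1KO by edgeR, that RT-PCR showed a trend that was not statistically significant. Among the other genes called with the covariate were Glipr2 (3.02), Csf3 (2.20), Fbp1 (-2.41) and Gad1 (-2.51). Between Wfs1KO and Wfs1HZ the covariate gave 2 genes, Cpb2 (2.25) and Serpina7 (2.95), and between Wfs1HZ and WT 0 (785 at an unadjusted p under 0.05).

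Of the 25 genes kept that the study lists between genotypes, the median difference between the Ctrb1 sides was 0.03, with 15 above 0. Npas4 (1.52), Gad1 (1.51) and Trpm5 (1.27) were past 1, and Serpina7 (-1.16) and Apoe (-1.05) past -1. None was separated between the sides. Since 3 of the 4 Wfs1KO samples were on the poor side, genotype and exocrine RNA cannot be told apart for these genes in the split. Wfs1 differed by 0.62 between the sides and by -0.03 without the 2 poorest samples.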

How the data were processed

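Islet RNA of 12 mice was amplified (Ovation), sequenced on a SOLiD 5500xl as paired reads and mapped by the authors to mm10 with LifeScope. The authors deposited 1 table of RPKM values, which are not counts. How reads were assigned to genes and whether strand was used are not given in the sources used here.

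The samples were ranked by Ctrb1 RPKM. Values were taken as log2(RPKM + 0.1) and genes with a mean of at least 1 RPKM were kept. The ranking, the genes named (the top acinar genes, each regulator and REG gene, the islet hormones, the extremes by difference and by Spearman correlation, and the 2 highest and 2 lowest of every other list) and the 20 gene lists were chosen with earlier results of these data known. Some members, among them Krt18, Krt19, Col1a2, Scg2 and Neurod1, were named outside these rules. Genotypes were compared with limma 3.58.1 in R 4.3.3 (trend, Benjamini-Hochberg), tested on simulated data, and Ctrb1 with an exact permutation test in scipy 1.17.1. RPKM values carry no counts, so no count model was fitted. Replicates were separate animals. Depth was estimated from RPKM steps (90.4% to 95.9% of values whole within 0.02 reads plus rounding) and intervals were not computed. Promoter sequences were those of RefSeq (GRCm38.p6). Positions and lengths came from GENCODE, matched by name for 86.2% of entries. Alternatives covered pseudocounts, filters, scalings, other marker genes and samples left out. Values of 3 listed genes are not reported here.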

Additional observations from a re-analysis of the deposited data

Results flagged for a closer look

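Among 63 sets of 4 samples examined (Ctrb1 and the 20 list medians in each genotype), 1 held a sample far from the other 3, where chance gives about 1 in 20. The erythroid list median of Wfs1KO replicate 1 was -0.71 on the log2(RPKM + 0.1) scale, against -3.32 in each of the other Wfs1KO samples, which is the value of a gene listed at 0. With those samples tied, any other value in the remaining sample would be flagged. The rate of 1 in 20 therefore does not apply to this set, and no conclusion is drawn from it.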

How the results depend on the processing

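The direction of the acinar enzyme and REG medians held under all 27 alternatives (0.83 to 2.53 and 1.48 to 3.67), and leaving out each sample in turn gave 1.33 to 1.93 and 2.14 to 3.38. The counts of separated genes did not hold. The 5 higher genes became 19 with median-of-ratios scaling or with samples ranked by Cpa1, by Prss2 or by the mean of the acinar enzymes, 20 with quantile normalization, 76 with 4 against 4 samples and 33 within each genotype. The 41 lower genes became 11 with a pseudocount of 1, 96 with a minimum mean of 0.1 RPKM, 11 with a minimum of 5, 7 with median-of-ratios scaling, 1 with quantile normalization, 12 rescaled outside the acinar and REG lists, 6 with samples ranked by Cela1, 823 with 4 against 4 samples, 84 within each genotype and 72 without both Wfs1HZ replicate 4 and Wfs1KO replicate 3, an alternative chosen after seeing the data. Fewer samples and fewer genes ease or shrink such counts by construction. Leaving out each sample gave 5 to 20 higher and 41 to 113 lower genes. Cpa1, Prss2 and the enzyme mean each put 5 of the same 6 samples on the rich side, Cela1 4. The Ctrb1 differences by genotype stayed past no threshold in all 39 alternatives, and leaving out each sample gave -1.31 to 0.41 (Wfs1KO against WT), -1.30 to 0.67 (Wfs1KO against Wfs1HZ) and -1.02 to 0.76 (Wfs1HZ against WT). The 3 genes called by limma between Wfs1KO and WT became 1 with a pseudocount of 1, 16 with the Ctrb1 covariate and 0 to 33 on leaving out each sample, 0 without WT replicate 1 or Wfs1KO replicate 3 and 33 without Wfs1KO replicate 4. Between Wfs1KO and Wfs1HZ 0 became 2 with the covariate and 0 to 8 on leaving out each sample (8 without Wfs1KO replicate 4, 2 without Wfs1HZ replicate 2). Between Wfs1HZ and WT 0 became 1 with no filter on low values and stayed at 0 to 0 on leaving out each sample. With a replicate block limma called 0 genes between Wfs1KO and WT, 0 between Wfs1KO and Wfs1HZ and 0 between Wfs1HZ and WT, and the paired Ctrb1 differences were -0.54, -0.28 and -0.26. The numbers were not taken to pair the animals, since same-numbered samples correlated between -0.28 and 0.34 in their deviations and 7 of 24 matches were best with their own number. The causes of these changes were not tested. Depth limits the scarce genes, where 3 reads on a 2 kb gene come to 0.686 RPKM in the shallowest library.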
